A study of Mus musculus with 18 samples.

Results

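Gene expression was compared between 0 and 2 h in alveolar type II cells isolated from Cebpa-deleted mice, 6 of the 18 arrays in the series. The arrays were chosen by their titles, as replicates 1, 2 and 3 at 0 h and replicates 2, 3 and 4 at 2 h. All mice were 7 to 8 weeks old and homozygous for the floxed allele, written CEBPa(flx/flx). The Cebpa-deleted genotype is labelled CCSP/rtTA/CEBPa(flx/flx), with no Cre named, and the series design places the deletion in Clara cells from early gestation and in type II cells from near term. Littermates with the floxed allele that lacked either the rtTA or the Cre transgene served as controls, with 3 arrays at each time. The series design gives hyperoxia as the exposure, whereas each sample description states air. In such lines CCSP names the promoter of the Clara cell secretory protein gene, which is active in the lung epithelium and drives the transactivator rtTA. The labels do not state whether the arrays of a group come from different animals, so a p-value here reflects array-to-array spread that may be technical in part.

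Type II cells line the alveoli, make and recycle surfactant, and renew the alveolar epithelium after injury. Surfactant is mostly phospholipid with cholesterol, so these cells express the enzymes of fatty acid, phospholipid and sterol synthesis at high levels. C/EBPα is a leucine zipper transcription factor that takes part in lung epithelial maturation and in surfactant lipid synthesis. High oxygen is known to injure the alveolar epithelium.

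The values were RMA expression levels on the log2 scale, quantile normalized over the 6 arrays and tested for 19938 genes with limma, and a gene was called at a Benjamini-Hochberg adjusted p below 0.05. Of these genes 5751 were called, 28.8% of those tested, with 2832 higher at 2 h (14.2%) and 2919 lower (14.6%). Changes of at least 2-fold were seen for 160 of the genes that rose and 199 of those that fell. As deposited, the 0 h arrays had a wider range of values than the 2 h arrays. The interquartile range over all features was 3.12 to 3.25 at 0 h and 2.80, 2.65 and 2.50 on 2 h replicates 2, 3 and 4, and in controls it was 3.202 to 3.242 at 0 h and 2.49 to 2.69 at 2 h. Time and whatever else separated the 0 h from the 2 h arrays cannot be told apart. The 0 h arrays correlated with each other at 0.993 to 0.994 and the 2 h arrays at 0.979 to 0.991. Replicate 2 stood nearest to the 0 h arrays among the 2 h arrays (mean correlation 0.981) and replicate 4 farthest (0.959). Without 0 h replicates 1, 2 and 3 the count of called genes was 3118, 2467 and 3170, and without 2 h replicates 2, 3 and 4 it was 8224, 2519 and 3653.

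Direction depended on the level of a gene. With genes divided by mean level into 10 equal groups (deciles), 25.1% of the lowest decile were called higher and 7.68% lower, against 9.53% and 12.8% of the highest. The median change was 0.15 in decile 1, -0.09 in decile 7 and -0.05 in decile 10, and it was -0.01 over all genes. With arrays centred on their medians in place of quantile normalization, the median of all genes moved to -0.18, and the share of calls that were higher was 31.0% in place of 49.2%. With scaling by the median and interquartile range that share was 38.6%, and with only the upper 60 percent by level tested it was 39.1%.

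**Figure D1:**
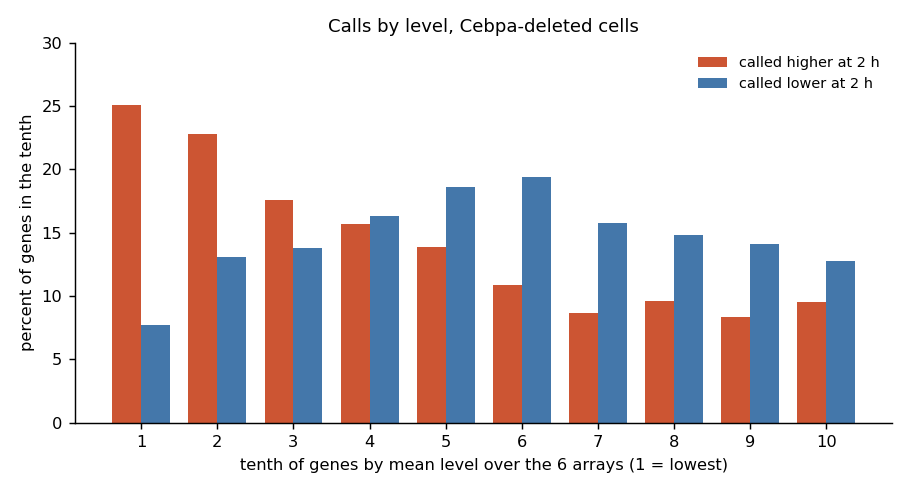
Percent of genes called higher (red) or lower (blue) at 2 h in each decile of the 19938 genes, ordered by mean log2 level over the 6 arrays. Rises made up 25.1% of the lowest decile and 9.53% of the highest, and falls 7.68% and 12.8%.

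Cebpa itself was lower at 2 h than at 0 h in the Cebpa-deleted cells. Its log2 level was 10.35, 10.40 and 10.20 at 0 h and 10.15, 9.17 and 9.61 at 2 h. The groups did not overlap, but 2 h replicate 2 lay only just below the lowest 0 h array. The change was -0.67 (SE 0.22, adjusted p = 0.0493), to 62.9% of the 0 h level. Without 0 h replicates 1, 2 and 3 the adjusted p was 0.121, 0.134 and 0.0924, and without 2 h replicates 3 and 4 it was 0.134 and 0.108. Without 2 h replicate 2 the change was -0.93 (adjusted p = 0.00291). In controls, normalized together with these arrays, Cebpa read 10.69, 10.75 and 10.76 at 0 h and 10.72, 10.71 and 10.86 at 2 h. Every Cebpa-deleted array lay below every control array, by -0.42 on average at 0 h (SE 0.18, adjusted p = 0.597) and by -1.12 at 2 h (SE 0.18, adjusted p = 0.0139). The position of the feature relative to the deletion was not known here. In bulk samples such as these, fewer cells of a type and less RNA per cell cannot be told apart.

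Of the other C/EBP family members, Cebpd, which is induced by glucocorticoids and cytokines, also fell. Its levels were 8.24, 8.35 and 8.60 at 0 h and 7.99, 8.01 and 7.34 at 2 h, with no overlap and a change of -0.62 (SE 0.19, adjusted p = 0.0402). The call was kept only without 2 h replicate 2 when each of the 6 arrays was left out, with changes from -0.76 to -0.41. Cebpb, a regulator of inflammatory genes, changed by 0.20 (adjusted p = 0.202) with overlapping groups, and by -0.32 with arrays centred on their medians. Cebpe, Cebpg and Ddit3 changed by -0.06, -0.11 and -0.11 and did not pass the test. The family gave 2 falls and no rise among 6 genes (33.3% fell, against 14.6% of all genes).

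Secreted defence proteins of the airway lining led the rises. Reg3g, a lectin that binds bacterial cell walls, read 7.28, 7.80 and 7.15 at 0 h and 9.46, 10.75 and 9.38 at 2 h. Its change of 2.45 (SE 0.34, adjusted p = 0.0035) was a 5.48-fold rise, with every 2 h array above every 0 h array. Bpifb1, a secreted protein of the upper airway, read 8.11, 8.07 and 7.93 at 0 h and 9.54, 10.78 and 9.67 at 2 h, a 3.90-fold rise (adjusted p = 0.00401). Bpifa1, its relative with antimicrobial and surface-active properties, read 8.30, 8.77 and 7.70 and then 10.51, 10.20 and 9.55, a 3.54-fold rise (adjusted p = 0.00565). For Reg3g and Bpifb1 replicate 3 was the highest 2 h array, whereas for Bpifa1 it was replicate 2. Scgb3a1, a secretoglobin, read 8.88, 9.03 and 8.46 at 0 h and 9.52, 10.57 and 10.50 at 2 h (2.66-fold, adjusted p = 0.0094). These 4 calls held with each of the 6 arrays left out.

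Across the 12 measured genes of airway secretory cells, 5 rose and 1 fell (41.7% and 8.33%, against 14.2% and 14.6% of all genes), with a median change of 0.18. Muc5b, a gel-forming mucin, rose by 1.11 (SE 0.26, adjusted p = 0.0162), from 7.28, 7.42 and 6.79 to 7.76, 8.78 and 8.27. Scgb3a2, another secretoglobin, rose by 0.66 (SE 0.19, adjusted p = 0.0327), and Pon1, a secreted lactonase, fell by 0.62 (SE 0.17, adjusted p = 0.0274). Scgb1a1, the Clara cell secretory protein, and Cyp2f2, a cytochrome P450 of Clara cells, changed by 0.12 (adjusted p = 0.296) and 0.08 (adjusted p = 0.597). Scgb1a1 lay at 13.74 to 13.87 after quantile normalization, close to the highest mean of any gene on that scale (14.17). As deposited, the highest values on the arrays were 14.24 to 14.89. The list mean was 10.31 to 10.61 on the 0 h arrays and 10.84 to 11.25 on the 2 h arrays. The median of the list was -0.19 in the values as deposited, -0.31 with median centring and 0.78 with scaling by the interquartile range. The rises numbered 4, 4 and 3 without 0 h replicates 1, 2 and 3, and 6, 3 and 4 without 2 h replicates 2, 3 and 4. The call of Pon1 was lost without any 0 h array or 2 h replicate 3 (-0.81 to -0.48), that of Muc5b without 0 h replicate 3 or 2 h replicate 3 (0.87 to 1.37), and that of Scgb3a2 was kept only without 2 h replicate 2 (0.51 to 0.91).

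**Figure D2:**
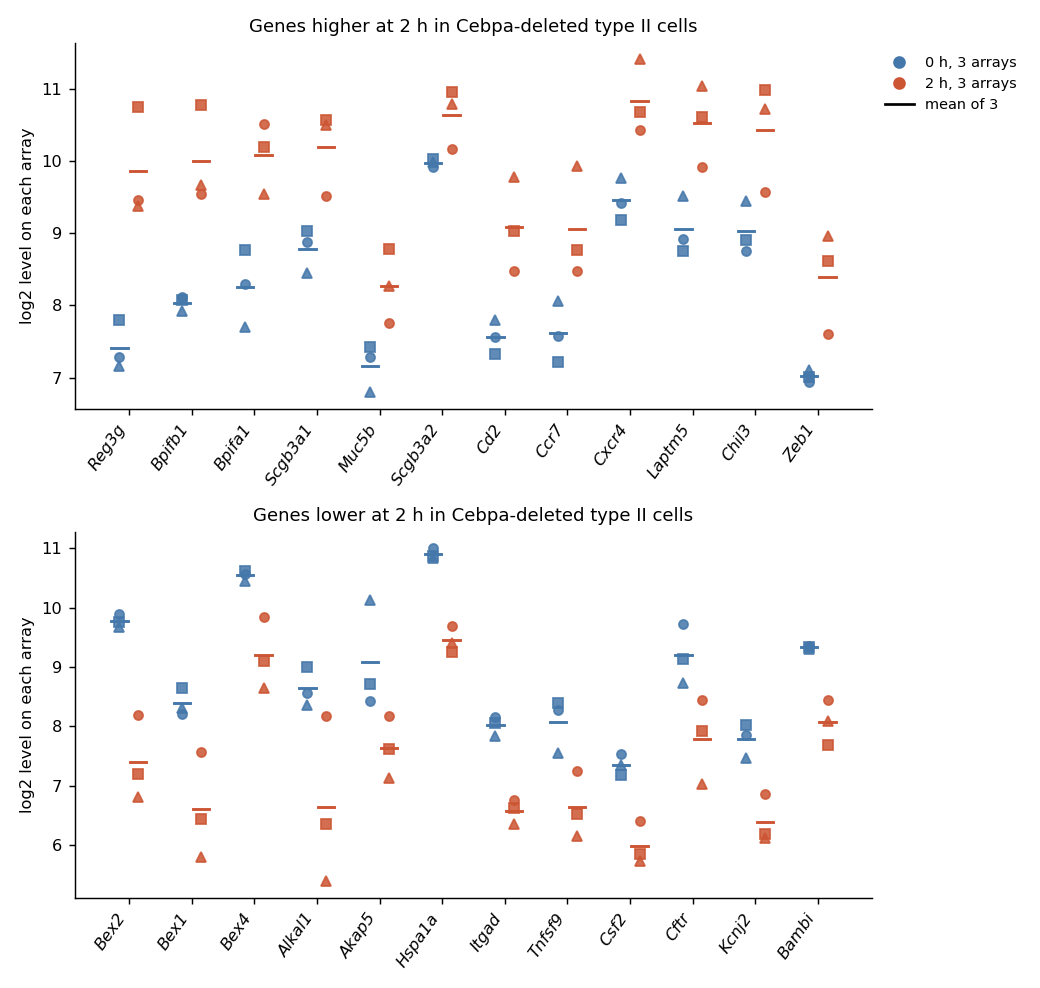
Log2 level of 24 genes on each of the 3 arrays at 0 h (blue; circle, square and triangle for replicates 1, 2 and 3) and at 2 h (red; replicates 2, 3 and 4), with the mean of each group as a line. In every gene shown the 2 groups do not overlap, and Reg3g (2.45) and Bex2 (-2.38) show the largest changes.

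Genes of immune cells were a second group among the leading rises. Cd2, an adhesion receptor of T and NK cells, read 7.56, 7.32 and 7.80 at 0 h and 8.47, 9.03 and 9.77 at 2 h (1.53, SE 0.29, adjusted p = 0.00838). Ccr7, a receptor that guides lymphocytes and dendritic cells to lymph nodes, read 7.57, 7.22 and 8.06 and then 8.48, 8.77 and 9.94 (1.45, SE 0.36, adjusted p = 0.0208). Cxcr4, the receptor of the chemokine CXCL12, read 9.43, 9.19 and 9.77 and then 10.43, 10.68 and 11.41 (1.38, SE 0.25, adjusted p = 0.00729). Replicate 4 was the highest 2 h array for all of these genes, and replicate 3 the highest 0 h array. Laptm5, a lysosomal membrane protein of blood cells, rose by 1.46 (SE 0.29, adjusted p = 0.00967), from 8.93, 8.75 and 9.52 to 9.92, 10.61 and 11.04. The calls of Cd2, Cxcr4 and Laptm5 held with each array left out, while that of Ccr7 was lost without 0 h replicate 1, 0 h replicate 2 or 2 h replicate 3 (1.04 to 1.75).

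Of 14 lymphocyte markers 4 rose (28.6%, against 14.2% of all genes) and none fell, with a median change of 0.63. The risers were Cd2, Gzma (1.002), a granzyme of cytotoxic cells, Klrb1c (0.92), an NK cell receptor, and Cd4 (0.67), the T helper co-receptor. Cd3e, a subunit of the T cell receptor complex, changed by 0.64 (adjusted p = 0.0652), Cd3d by -0.01 and Ms4a1, a B cell marker, by 0.04. The list mean was 6.57, 6.41 and 6.94 at 0 h and 7.00, 7.03 and 7.81 at 2 h, so 0 h replicate 3 and 2 h replicates 2 and 3 stood close together. The count of rises was 2, 2 and 5 without 0 h replicates 1, 2 and 3, and 8, 2 and 2 without 2 h replicates 2, 3 and 4.

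Of 17 macrophage markers 5 rose (29.4%, against 14.2% of all genes) and none fell, with a median of 0.25. Chil3, a chitinase-like protein of alveolar macrophages, led with 1.39 (SE 0.34, adjusted p = 0.0201), reading 8.76, 8.90 and 9.44 at 0 h and 9.57, 10.98 and 10.72 at 2 h. Ctsk, a cathepsin, rose by 0.93, Plet1 by 0.85, the Fc receptor gene Fcgr3 by 0.55 and the complement gene C1qc by 0.50. Lyz2 (-0.23), Csf1r (-0.01) and Siglecf (-0.06) did not pass the test. No rise was called without 0 h replicate 1 or 2, 4 without 0 h replicate 3, and 10, 1 and 1 without 2 h replicates 2, 3 and 4. The call of Chil3 was kept only without 0 h replicate 3 or 2 h replicate 2 (1.12 to 1.83). The list mean was 7.504 to 7.69 at 0 h and 7.58, 8.13 and 8.10 at 2 h.

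Matrix genes of fibroblasts were also among the rises. Of 16 fibroblast and smooth muscle markers 6 rose and 1 fell (37.5% and 6.25%, against 14.2% and 14.6% of all genes). The median was 0.58. Col1a2, a chain of type I collagen, read 7.54, 7.55 and 7.52 at 0 h and 8.02, 9.08 and 9.34 at 2 h (1.27, SE 0.29, adjusted p = 0.0154). Col3a1 (0.91), Col1a1 (0.88), the elastin gene Eln (0.85), Bgn (0.59) and Tcf21 (0.57) also rose. The list mean was 6.94 to 7.12 at 0 h and 7.18, 7.75 and 7.69 at 2 h. Lum, a collagen-binding proteoglycan, fell by 0.82 (SE 0.14, adjusted p = 0.00589). The calls of Eln and Lum held with each array left out, that of Col1a2 was lost without 0 h replicate 2, 0 h replicate 3 or 2 h replicate 3 (1.04 to 1.68), and the rises numbered 3, 1 and 1 without 0 h replicates 1, 2 and 3, and 10, 1 and 2 without 2 h replicates 2, 3 and 4. Zeb1, a transcription factor of mesenchymal and some immune cells, rose by 1.38 (SE 0.29, adjusted p = 0.0125), from 6.94, 7.00 and 7.11 to 7.61, 8.62 and 8.96, and lost its call without 2 h replicate 3 (1.14).

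Endothelial markers split the 2 h arrays. The mean of 18 endothelial genes was 8.84, 9.03 and 8.84 at 0 h, and 8.64, 9.55 and 9.69 on 2 h replicates 2, 3 and 4. Replicate 2 thus lay below all 0 h arrays and the other two 2 h arrays above them. Only Vwf, the clotting factor stored by endothelium, rose (0.68, SE 0.18, adjusted p = 0.024), with a list median of 0.41. This was 5.56% of the list, against 14.2% of all genes. Without 2 h replicate 2 there were 15 rises, without 0 h replicate 3 there was 1, and without any of the other 4 arrays there was none. With median centring the list median was -0.04. Pecam1, an endothelial adhesion molecule, read 9.71, 9.84 and 9.59 and then 9.40, 10.40 and 10.51. Ciliated cell markers gave 2 rises among 11 (18.2%, against 14.2% of all genes). There were 8 without 2 h replicate 2, and at most 1 without any other array. Neutrophil markers gave 2 rises and 1 fall among 12 (16.7% and 8.33%, against 14.2% and 14.6%), and erythroid genes none among 3. The lowest values on the 6 arrays as deposited were 1.80 to 2.67, so a marker level above 0 does not by itself show its cell type. The part of these cell types in the changes of the other genes was not tested.

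**Figure D3:**
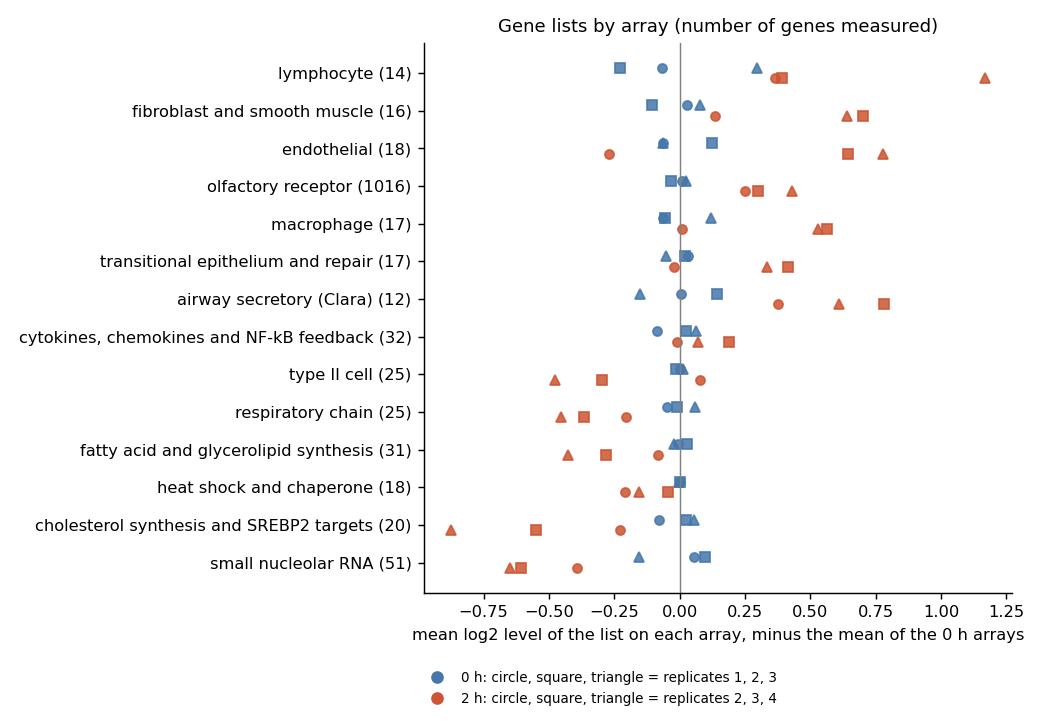
Mean log2 level of each gene list on each array, minus the mean of the 3 arrays at 0 h; blue marks are 0 h arrays and red marks 2 h arrays, with the number of genes measured in brackets. Cholesterol, respiratory chain and small nucleolar RNA genes lie below 0 on all 3 arrays at 2 h, whereas for endothelial, macrophage and type II lists 2 h replicate 2 (red circle) stands apart from replicates 3 and 4.

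Of 25 measured type II cell markers 3 rose and 6 fell (12% and 24%, against 14.2% and 14.6% of all genes). The median was -0.23. As deposited none rose and 19 fell, and with scaling by the interquartile range 7 rose and 1 fell. The most abundant surfactant genes showed small changes that did not pass the test: Sftpc read 14.26, 14.26 and 14.20 at 0 h and 14.11, 14.15 and 14.06 at 2 h (-0.14, adjusted p = 0.27). Sftpa1 changed by -0.05, Sftpb by 0.04 and Abca3, the lipid transporter of lamellar bodies, by -0.04. These genes lie near the top of the scale and depend on it: Sftpc stood at -0.75 as deposited and at 0.56 with scaling by the interquartile range. Sftpd, the surfactant protein that binds microbial sugars, fell by 0.60 (SE 0.13, adjusted p = 0.012), from 12.70, 12.73 and 12.68 to 12.36, 12.05 and 11.90. S100g, a calcium-binding protein, showed the largest fall in this list, from 11.08, 11.13 and 10.93 to 10.59, 9.48 and 9.66 (-1.14, SE 0.26, adjusted p = 0.015). The call of Sftpd was lost without 2 h replicate 3 (-0.497) and that of S100g without 0 h replicate 2 or 2 h replicate 3 (-1.49 to -0.93). Cldn18 (-0.55), a tight junction gene, Dram1 (-0.61), Fgfr2 (-0.48) and Scd1 (-0.41) completed the falls.

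The rises in that list were the lung transcription factor genes Foxa1 and Nkx2-1 and the protease gene Ctsh. Foxa1 read 9.67, 9.64 and 9.76 at 0 h and 10.26, 10.49 and 10.35 at 2 h (0.68, SE 0.10, adjusted p = 0.0041), and this call held with each array left out. Nkx2-1 read 9.68, 9.72 and 9.81 and then 10.56, 10.20 and 10.13 (0.56, SE 0.13, adjusted p = 0.0158), but -0.04 with median centring. Replicate 2 was the highest 2 h array for Nkx2-1, and the call was lost without 0 h replicate 1 or 2. Ctsh changed by 0.43 after quantile normalization, -0.03 in the deposited values and -0.15 with median centring. The median of the list was -0.75 as deposited, -0.87 with median centring and 0.21 with scaling by the interquartile range. The falls numbered 3, 2 and 2 without 0 h replicates 1, 2 and 3 and 14, 0 and 3 without 2 h replicates 2, 3 and 4, and the rises 1, 1 and 2 and then 2, 2 and 3. Of 15 type I cell markers none rose and 2 fell, Akap5 (-1.46) and Vegfa (-0.47), with a median of -0.30. The falls were 13.3%, near the 14.6% of all genes. The mean of that list was 9.30 and 9.31 on 0 h replicates 1 and 2 but 10.15 on replicate 3, against 9.13 to 9.24 at 2 h, and neither fall was called without 0 h replicate 3, 2 h replicate 3 or 2 h replicate 4.

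Genes of cholesterol synthesis included many falls. SREBP2 is the transcription factor that turns these genes on when membrane sterol is low, and INSIG1 holds it back. Of 20 measured genes none rose and 11 fell, 55% against 14.6% of all genes, with a median of -0.47 against -0.01 for all genes. The median lay between -1.04 and -0.35 over the deposited values, median centring, interquartile range scaling, cyclic loess, the fit of 18 arrays, the replicate block and each array left out.

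Tm7sf2, a sterol reductase, read 8.88, 9.0 and 8.98 at 0 h and 8.33, 7.70 and 7.38 at 2 h (-1.15, SE 0.21, adjusted p = 0.00776). Cyp51, lanosterol demethylase, read 9.38, 9.55 and 9.58 and then 8.95, 8.62 and 7.62 (-1.11, SE 0.29, adjusted p = 0.025). Nsdhl, a dehydrogenase of sterol demethylation, read 10.30, 10.24 and 10.23 and then 9.69, 9.25 and 9.10 (-0.91, SE 0.15, adjusted p = 0.00574). In each of these genes the 3 arrays at 2 h lay below all 0 h arrays, with replicate 4 the lowest and replicate 2 nearest to 0 h. Idi1, the isomerase of the isoprenoid branch, fell by 0.90 (SE 0.19, adjusted p = 0.0125), from 11.22, 11.27 and 11.23 to 10.80, 10.27 and 9.94, and Lss, lanosterol synthase, by 0.88 (SE 0.25, adjusted p = 0.0331). Mvd (-0.78), Insig1 (-0.63), Hmgcs1 (-0.48), Msmo1 (-0.46), Sc5d (-0.43) and Sqle (-0.40) completed the falls. Srebf2, which encodes SREBP2, changed by 0.05 (adjusted p = 0.726).

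The calls of Tm7sf2 and Nsdhl held with each array left out, and that of Idi1 was lost only without 2 h replicate 3 (-0.71). Those of Cyp51 (-1.40 to -0.73) and Lss (-1.19 to -0.59) were kept only without 2 h replicate 2 or 4. The falls in the list numbered 6, 3 and 3 without 0 h replicates 1, 2 and 3, and 16, 3 and 7 without 2 h replicates 2, 3 and 4.

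The promoters of genes that fell in this list are shown because they share a short motif. SREBP2 acts on sterol genes together with the CCAAT-binding factor NF-Y, and CCAAT (read on both strands, ATTGG on the other) was searched in the RefSeq promoters of build GRCm38.p6, from 250 bases before to 50 after each gene start. All 16 of the 20 genes with an entry held it, against 41.1% of the 27025 genes in the table. Members that did not pass the test held it too: Mvk (-0.26), Pmvk (-0.63), Hsd17b7 (-0.59), Ebp (-0.255), Dhcr7 (-0.33) and Srebf2 (0.05). The motif therefore does not set apart the genes of this list that fell. The motif was chosen with the falls of this list known, and a match does not show that a factor binds. The stretches below run 5′ to 3′ on the gene's strand and end at the base before the start, with each match in capitals. The genes shown are Nsdhl at chrX:72918391-72918520 (plus strand), Idi1 at chr13:8885476-8885605 (plus), Hmgcs1 at chr13:119690161-119690350 (plus) and Cyp51 at chr5:4104698-4104827 (minus).
Nsdhl: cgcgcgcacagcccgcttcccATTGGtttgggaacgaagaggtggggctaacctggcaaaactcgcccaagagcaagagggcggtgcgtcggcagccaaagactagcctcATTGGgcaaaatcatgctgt
Idi1: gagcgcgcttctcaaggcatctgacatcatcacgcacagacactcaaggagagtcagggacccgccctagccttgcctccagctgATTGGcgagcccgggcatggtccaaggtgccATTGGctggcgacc
Hmgcs1: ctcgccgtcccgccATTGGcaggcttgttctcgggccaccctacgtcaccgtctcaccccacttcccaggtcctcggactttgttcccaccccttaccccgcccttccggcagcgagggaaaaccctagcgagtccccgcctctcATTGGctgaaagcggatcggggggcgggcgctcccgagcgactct
Cyp51: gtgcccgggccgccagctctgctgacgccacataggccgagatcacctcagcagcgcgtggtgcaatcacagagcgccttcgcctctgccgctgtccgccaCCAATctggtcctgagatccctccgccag
The matches start 109 and 20 bases before the start in Nsdhl, 45 and 14 in Idi1, 176 and 45 in Hmgcs1, and 29 in Cyp51. The changes beside them are -0.91, -0.90, -0.48 and -1.11.

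Of 31 measured genes of fatty acid and glycerolipid synthesis none rose, 8 fell (25.8% against 14.6% of all genes) and 23 did not pass the test. The median was -0.26 and lay between -0.76 and -0.14 over the same settings. Gpam, which starts glycerolipid synthesis at the mitochondrion, read 11.41, 11.22 and 11.12 at 0 h and 10.70, 10.06 and 9.99 at 2 h (-1.002, SE 0.19, adjusted p = 0.00793). Fabp5, a fatty acid binding protein, read 10.89, 10.98 and 10.79 and then 10.41, 9.59 and 9.36 (-1.10, SE 0.24, adjusted p = 0.0131). Chka, choline kinase, the first step to phosphatidylcholine, read 10.20, 10.23 and 10.20 and then 9.67, 9.61 and 9.35 (-0.67, SE 0.11, adjusted p = 0.00573). Acetyl-CoA carboxylase genes fell too, Acaca by 0.73 and Acacb by 0.50. Mlxipl, Scd1 and Chpt1 completed the falls (-0.46, -0.41 and -0.33), with Scd1 at 0.21 under scaling by the interquartile range. Fasn, fatty acid synthase, read 11.997, 11.95 and 11.94 and then 12.18, 11.85 and 11.26, a change of -0.20 (adjusted p = 0.483) that differed in sign between 2 h arrays. The calls of Gpam and Chka held with each array left out, and that of Fabp5 was lost without 2 h replicate 3 (-0.89). The falls numbered 4, 3 and 5 without 0 h replicates 1, 2 and 3, and 16, 3 and 5 without 2 h replicates 2, 3 and 4.

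Nuclear genes of the respiratory chain gave no rise and 10 falls among 25 (40%, against 14.6% of all genes), with a median of -0.22. The chain's complexes pass electrons from NADH and succinate to oxygen, and its last complex is the main site of oxygen use in the cell. Cox7a2, a subunit of cytochrome c oxidase, read 9.46, 9.54 and 9.46 at 0 h and 8.58, 8.20 and 8.06 at 2 h (-1.20, SE 0.14, adjusted p = 0.00228). Sdhb, the iron-sulfur subunit of succinate dehydrogenase, read 8.83, 8.87 and 8.97 and then 8.19, 8.04 and 7.90 (-0.85, SE 0.11, adjusted p = 0.00283). Cox5b read 10.44, 10.44 and 10.54 and then 9.79, 9.68 and 9.52 (-0.81, SE 0.11, adjusted p = 0.00285). The 0 h arrays were nearly equal in these genes and all 2 h arrays lay lower. Atp5o of ATP synthase (-0.76) and Ndufb8 of complex I (-0.66) fell as well, whereas other subunits of the same complexes, such as Cox5a (0.01), Atp5a1 (-0.02) and Ndufa4 (-0.03), did not pass the test. This contrast depended on scaling. As deposited 24 of the 25 genes fell (median -0.67), and Cox5a, Atp5a1 and Ndufa4 stood at -0.38, -0.49 and -0.52. With scaling by the interquartile range 1 rose and 8 fell (median -0.23), and these 3 genes stood at -0.06, 0.38 and 0.15. The calls of Cox7a2, Sdhb, Cox5b, Atp5o and Ndufb8 held with each array left out, and the falls numbered 7 without any array but 2 h replicate 2, without which they numbered 12.

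**Figure D4:**
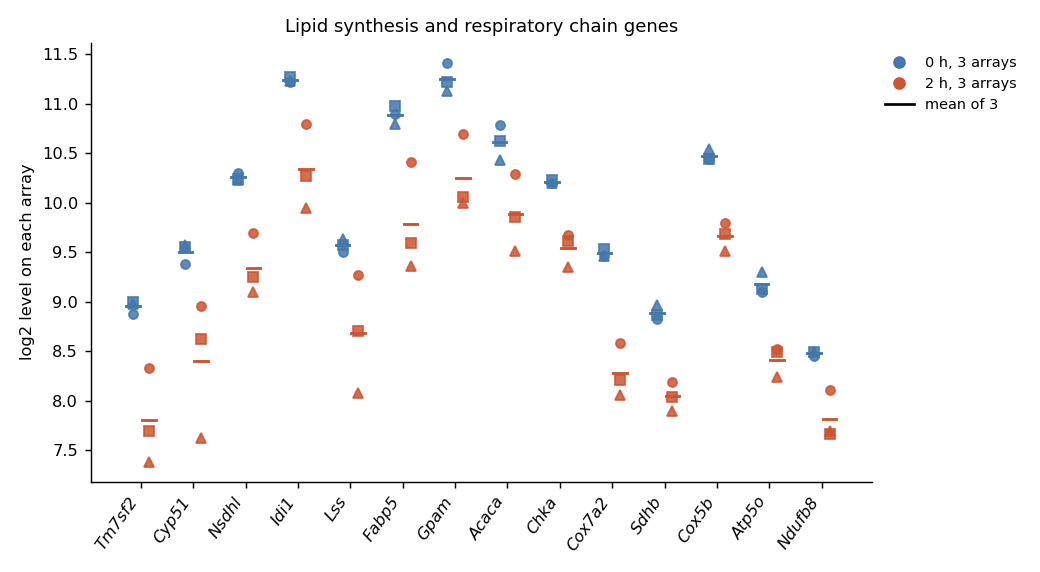
Log2 level of 5 cholesterol, 4 fatty acid and glycerolipid and 5 respiratory chain genes on each array at 0 h (blue; circle, square and triangle for replicates 1, 2 and 3) and 2 h (red; replicates 2, 3 and 4), with group means as lines. All 2 h arrays lie below the 0 h arrays; changes run from -0.66 (Ndufb8) to -1.20 (Cox7a2).

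Heat shock proteins refold damaged proteins and their genes are switched on by HSF1. Of 18 measured genes 3 rose and 5 fell (16.7% and 27.8%, against 14.2% and 14.6% of all genes). The median was -0.13, and as deposited none rose and 12 fell. Hspa1a, the inducible HSP70, read 11.002, 10.87 and 10.83 at 0 h and 9.70, 9.26 and 9.40 at 2 h. It stood at 36.6% of its 0 h level (-1.45, SE 0.13, adjusted p = 0.00138). Dnajb1, an HSP70 co-chaperone, read 10.33, 10.31 and 10.27 and then 9.72, 9.61 and 9.55 (-0.68, SE 0.09, adjusted p = 0.00339). The groups were far apart relative to their spread in both genes. Dnaja1, another co-chaperone, fell by 0.49 (SE 0.10, adjusted p = 0.0104), the mitochondrial chaperonin gene Hspe1 by 0.47 (SE 0.14, adjusted p = 0.0362) and Chordc1 by 0.39 (SE 0.10, adjusted p = 0.0276). Hspa4l (0.58), Ahsa1 (0.36) and Hspa4 (0.30) rose, but with median centring they stood at -0.01, -0.21 and -0.29, and in the deposited values Ahsa1 and Hspa4 stood at -0.09 and -0.17. Hspa8, the constitutive HSP70, changed by -0.13 (adjusted p = 0.288). The calls of Hspa1a, Dnajb1 and Dnaja1 held with each array left out, that of Hspe1 only without 2 h replicate 3 (-0.63 to -0.38). No rise was called without any array but 2 h replicate 2, without which there were 5, and the falls numbered 3 without each 0 h array and 4, 5 and 3 without 2 h replicates 2, 3 and 4.

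HSF1 binds inverted repeats of GAA, and the core GAANNTTC (its own reverse complement) was looked for in the same promoter windows. It was present in 9 of the 15 list members with an entry, against 9.04% of all genes in the table, and in 4 of the 5 genes that fell, Dnajb1 being the exception. The 3 genes that rose had no match. Of the 7 members with an entry that did not pass the test 5 also held it, Hspb1 (0.16), Hspb8 (-0.23), Hspd1 (-0.01), Hsph1 (0.27) and Bag3 (-0.13). Stretches from 130 to 41 bases before the start are shown for 2 genes that fell, Hspa1a at chr17:34972197-34972286 (minus strand) and Hspe1 at chr1:55088018-55088107 (plus), with the match in capitals.
Hspa1a: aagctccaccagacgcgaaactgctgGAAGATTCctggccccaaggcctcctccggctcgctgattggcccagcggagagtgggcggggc
Hspe1: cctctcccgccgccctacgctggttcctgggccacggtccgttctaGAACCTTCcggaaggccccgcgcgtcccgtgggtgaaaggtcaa
The match starts 104 bases before the start in Hspa1a and 84 in Hspe1. Windows of this size say nothing of sites farther away, and the motif was chosen with the changes of this list known.

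Of 32 measured genes for cytokines, chemokines and NF-kB feedback 9 rose and 4 fell (28.1% and 12.5%, against 14.2% and 14.6% of all genes), and 19 did not pass the test. The median was 0.14, and it was -0.10 as deposited, where 4 rose and 12 fell, and -0.22 with median centring. Bcl3, a nuclear IκB protein, read 8.36, 8.44 and 8.53 at 0 h and 9.24, 9.35 and 9.46 at 2 h (0.91, SE 0.10, adjusted p = 0.00221). Ccl2, the monocyte chemokine, read 6.44, 6.77 and 6.76 and then 7.08, 8.07 and 7.58 (0.92, SE 0.23, adjusted p = 0.0202). The neutrophil chemokines Cxcl1 and Cxcl2 rose by 0.61 and 0.53, Ccl20 by 0.62, Ccl7 by 0.71 and Tnf by 0.62. Tnfaip2 rose by 0.76 and Tnfaip3, the NF-kB inhibitor A20, by 0.53, although Tnfaip3 stood at -0.07 with median centring. Nfkbia (0.16), Relb (0.39), Icam1 (0.03) and the chemokine genes Cxcl10 (0.02) and Cxcl15 (-0.22) did not pass.

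The 4 falls in that list were Tnfsf9, Csf2, Il1b and Il1f9. Tnfsf9, the ligand of the co-stimulatory receptor 4-1BB, read 8.27, 8.39 and 7.56 and then 7.25, 6.52 and 6.15 (-1.43, SE 0.30, adjusted p = 0.0115). Csf2, which encodes the growth factor GM-CSF, read 7.53, 7.18 and 7.35 and then 6.40, 5.84 and 5.72 (-1.36, SE 0.18, adjusted p = 0.0031). Il1b read 8.31, 8.65 and 8.72 and then 7.52, 7.96 and 7.71 (-0.83, SE 0.15, adjusted p = 0.00737). None of these groups overlapped, and the calls of Tnfsf9, Csf2, Il1b, Bcl3, Cxcl2 and Ccl20 held with each array left out. That of Ccl2 was kept only without 2 h replicate 2 or 4 (0.69 to 1.18), as was that of Ccl7, and that of Il1f9 (-0.82) only without 0 h replicate 1 or 2 h replicate 2. The rises numbered 4, 4 and 5 without 0 h replicates 1, 2 and 3 and 14, 3 and 6 without 2 h replicates 2, 3 and 4, and the falls 4, 3 and 3 and then 7, 3 and 3. No gene of the 18 in the interferon list passed the test, against 4 rises and 1 fall without 2 h replicate 2.

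Immediate early genes, which respond within minutes to growth factors, stress and cell handling, gave 7 rises and 6 falls among 40 (17.5% and 15%). These shares were near the 14.2% and 14.6% of all genes. As deposited none rose and 21 fell, and the median was 0.05, or -0.49 with median centring. Ier2 read 9.55, 9.44 and 9.44 at 0 h and 8.77, 8.70 and 8.75 at 2 h (-0.74, SE 0.09, adjusted p = 0.00264). Socs3, a feedback inhibitor of cytokine receptors, read 9.50, 9.51 and 9.71 and then 8.95, 8.91 and 9.03 (-0.61, SE 0.10, adjusted p = 0.00574). Both had tight groups, and both calls held with each array left out. Ier3 fell by 0.56 and Egr1 by 0.32. Fosl1 (0.69), Arc (0.63), Klf2 (0.55), Rhob (0.55) and Srf (0.55) rose, with Rhob and Srf at -0.04 under median centring. The groups of Fosl1 overlapped, and its call was kept only without 0 h replicate 2 or 2 h replicate 2 (0.55 to 0.91). That of Arc was kept only without 2 h replicate 2 (0.48 to 0.86). Klf2 lost its call without 0 h replicate 1, 0 h replicate 2 or 2 h replicate 4, while Rhob and Srf held with each array left out. With 1 array left out the rises numbered 2 to 12 and the falls 2 to 8, the most without 2 h replicate 2. Fos read 10.50, 10.40 and 10.49 and then 10.58, 10.33 and 10.59, a change of 0.04 (adjusted p = 0.783) that was -0.57 with median centring.

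Of 31 genes of the NRF2 and antioxidant list 3 rose and 4 fell (9.68% and 12.9%, against 14.2% and 14.6% of all genes). The median was -0.05. These counts depended on scaling, with 1 rise and 21 falls as deposited (median -0.48), 1 and 26 with median centring (median -0.60), and 6 and 2 with scaling by the interquartile range (median 0.25). Gpx1, the cytosolic glutathione peroxidase, read 11.01, 11.16 and 11.13 at 0 h and 10.51, 10.17 and 9.92 at 2 h (-0.90, SE 0.15, adjusted p = 0.0056). Nqo1, a quinone reductase and NRF2 target, fell by 0.52 (SE 0.15, adjusted p = 0.0371), and Gclm, of glutathione synthesis, rose by 0.46 (SE 0.14, adjusted p = 0.0377) but stood at -0.10 with median centring. Gpx3, the secreted glutathione peroxidase, rose by 0.96 (SE 0.26, adjusted p = 0.0285), and its call was lost without any array but 2 h replicate 2. The call of Gpx1 held with each array left out, and that of Nqo1 was lost without 0 h replicate 2 or 3 or 2 h replicate 3 or 4. Without 2 h replicate 2 the list gave 4 rises and 5 falls, and without any other array at most 1 rise and 2 falls.

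Of 26 glucocorticoid target and clock genes 4 rose and 3 fell (15.4% and 11.5%), close to the 14.2% and 14.6% of all genes, and as deposited 1 rose and 13 fell. Tsc22d3, the glucocorticoid-induced leucine zipper, read 8.27, 8.48 and 8.50 and then 7.97, 7.35 and 7.69 (-0.75, SE 0.16, adjusted p = 0.0124). Dbp, a clock output gene, read 7.19, 7.25 and 7.33 and then 7.88, 7.99 and 7.67 (0.59, SE 0.11, adjusted p = 0.00824). Neither group overlapped and both calls held with each array left out. Nr1d1, a clock repressor, rose by 0.59 (SE 0.16, adjusted p = 0.0276) and stood at -0.04 with median centring. With 1 array left out the list had 1 to 5 rises and 1 to 4 falls. The hours of day at which cells were taken were not known here.

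Among p53 targets 1 of 18 rose and 3 fell (5.56% and 16.7%, the latter near the 14.6% of all genes), with Bbc3, the pro-apoptotic gene PUMA, lower by -0.82 (SE 0.13, adjusted p = 0.00546). As deposited none of these rose and 9 fell. Leaving out 2 h replicate 2 gave 6 rises and 5 falls, and without any other array no rise and 1 or 2 falls. Of 26 genes of the integrated stress and unfolded protein response none rose and 3 fell, 11.5% against 14.6% of all genes, led by Ddit4, an inhibitor of mTORC1 signalling (-0.65, SE 0.12, adjusted p = 0.00742). As deposited 18 of these genes fell. Without 2 h replicate 2 there were 5 rises and 5 falls, and without any other array no rise and 1 or 2 falls. Of 21 cell cycle genes none rose and 6 fell (28.6%, against 14.6% of all genes), and with 1 array left out 3 to 5 fell. Of 23 glycolysis and HIF genes 2 rose and 5 fell, led by Higd1a (-0.97), a mitochondrial protein. These were 8.70% and 21.7%, against 14.2% and 14.6% of all genes. Leaving out 2 h replicate 2 gave 4 rises and 8 falls, and leaving out any other array no rise and 2 or 3 falls. Ccne2, cyclin E2, read 6.23, 6.201 and 6.06 and then 5.41, 4.98 and 5.05 (-1.02, SE 0.13, adjusted p = 0.00284). Genes of transitional epithelium, the state between type II and type I cells during repair, gave 4 rises and no fall among 17. The rises were 23.5%, against 14.2% of all genes. The list had a median of 0.27 that was -0.18 as deposited and -0.30 with median centring. Its rises were Sprr1a (0.89), Krt7 (0.59), Tnip3 (0.58) and Clu (0.50), with Krt7 and Clu at -0.02 and -0.12 under median centring. Without 0 h replicates 1, 2 and 3 these rises numbered 1, 3 and 1, and without 2 h replicates 2, 3 and 4 they numbered 11, 1 and 1.

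Bex2, a gene on the X chromosome for a small protein, showed the largest fall of all called genes, and Bex1 and Bex4 of the same family were also among the leading falls. Bex2 read 9.90, 9.76 and 9.68 at 0 h and 8.20, 7.19 and 6.81 at 2 h, to 19.2% of the 0 h level (-2.38, SE 0.30, adjusted p = 0.00281). Bex1 read 8.20, 8.64 and 8.31 and then 7.57, 6.43 and 5.79 (-1.79, SE 0.38, adjusted p = 0.0123). Bex4 read 10.57, 10.63 and 10.45 and then 9.84, 9.10 and 8.64 (-1.35, SE 0.26, adjusted p = 0.00857). All 3 genes fell most on replicate 4 and least on replicate 2, and the call of Bex1 was lost without 2 h replicate 3 (-1.44).

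Other leading falls had varied roles. Cftr, the chloride channel of airway and alveolar epithelium, read 9.73, 9.13 and 8.74 and then 8.44, 7.91 and 7.03 (-1.41, SE 0.36, adjusted p = 0.0222). Kcnj2, an inward rectifier potassium channel, read 7.86, 8.03 and 7.46 and then 6.87, 6.18 and 6.12 (-1.39, SE 0.22, adjusted p = 0.00478). Bambi, a decoy receptor of TGF-β signalling, read 9.35, 9.34 and 9.31 and then 8.44, 7.68 and 8.08 (-1.27, SE 0.17, adjusted p = 0.00334). The groups did not overlap, though Cftr varied by a full log2 unit among the 0 h arrays. Alkal1, a ligand of the receptors ALK and LTK, fell by 2.00 (SE 0.58, adjusted p = 0.0353), from 8.56, 9.01 and 8.35 to 8.18, 6.36 and 5.38. Akap5, an anchor of protein kinase A, fell by 1.46 (SE 0.43, adjusted p = 0.0356), with 0 h replicate 3 at 10.14 and the other 0 h arrays at 8.42 and 8.72. Its call was kept only without 0 h replicate 1 or 2 h replicate 2, and without 0 h replicate 3 the change was -0.92. The calls of Kcnj2 and Bambi held with each array left out, that of Cftr was lost without 0 h replicate 1, 0 h replicate 2 or 2 h replicate 3, and that of Alkal1 was kept only without 2 h replicate 2. Itgad, an integrin subunit of leukocytes (-1.44), Tmem126a, a factor of complex I assembly (-1.34), the zinc finger genes Zfp971 (-1.30) and Zfp518a (-1.29), and Fkbp3, a prolyl isomerase (-1.27), completed the 15 largest falls above the median level. Of these Zfp971 was called only without 2 h replicate 2 or 4 (-1.69 to -0.81), and the others held with each array left out. Another feature of Itgad, of lower mean level, changed by only -0.37, so the size of its fall is uncertain.

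Of the 15 largest rises, those not yet described were Krtap5-3 (1.54), Krtap5-1 (1.43), Chad (1.47), Fggy (1.40) and Trdn (1.40). Krtap5-3 and Krtap5-1 encode keratin-associated proteins of hair, Chad a cartilage matrix protein and Trdn a protein of muscle calcium release. The call of Krtap5-3 was lost without 0 h replicate 2 or 3 (1.07 to 1.86). Fggy, a carbohydrate kinase, had 5 features, of which the one used rose and the other 4 changed by -0.72, -0.74, -1.79 and -1.82, so its direction is uncertain. Of the 19 features of Trdn, the changes ran from -0.60 to 1.40.

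Small nucleolar RNA genes, whose products guide chemical modification of ribosomal RNA, gave 28 falls and 1 rise among 51. These were 54.9% and 1.96%, against 14.6% and 14.2% of all genes, and the median was -0.47. Snord47 read 8.41, 8.34 and 8.02 at 0 h and 6.92, 6.22 and 5.66 at 2 h (-2.00, SE 0.28, adjusted p = 0.00348). Without 0 h replicates 1, 2 and 3 the falls numbered 16, 15 and 23, and without 2 h replicates 2, 3 and 4 they numbered 33, 15 and 19. Histone genes gave 15 falls and 4 rises among 34 (44.1% and 11.8%), and 6 to 18 falls with 1 array left out. Cytosolic ribosomal protein genes gave 12 falls and 5 rises among 50 (24% and 10%), with a median of -0.15 that was 0.16 with scaling by the interquartile range. That scaling gave 6 falls and 11 rises, the deposited values gave 41 falls and 1 rise, and with 1 array left out 8 to 18 fell and 1 to 4 rose. Of 287 genes with microRNA symbols 69 rose and 39 fell (24% and 13.6%). As deposited these numbers were 139 and 24, and with scaling by the interquartile range 46 and 61. Of 1016 olfactory receptor genes, which encode odour receptors of the nose and whose mean level of 4.62 lay in the lowest decile, 420 rose and 25 fell (41.3% and 2.46%). Their median was 0.32, against 0.15 for the lowest decile of all genes, and 256 to 464 rose with 1 array left out. As deposited 759 rose and 6 fell (median 0.63), and with scaling by the interquartile range 262 and 65 (median 0.13). With the 12 arrays of both genotypes fitted together, 479 of them rose and 35 fell in Cebpa-deleted cells. In controls that fit gave 600 rises and 20 falls.

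The same change was measured in control cells, with all 12 arrays normalized together, to ask which genes changed differently in the 2 genotypes. In controls 20.2% of genes were called higher and 23.2% lower at 2 h. Those shares come from the fit of 12 arrays. The shares given for Cebpa-deleted cells come from the fit of 6 arrays, so their sizes are not directly comparable. Of the 2832 genes that rose in Cebpa-deleted cells, 98.5% had a positive change in controls and 2326 were called higher there. Of the 2919 that fell, 99.1% had a negative change in controls and 2473 were called lower. The control and Cebpa-deleted arrays are separate, but both comparisons carry whatever separated the 0 h from the 2 h arrays. The difference between the genotypes in the change was called for 0 of 19938 genes (0%; limma, smallest adjusted p = 0.617). At an unadjusted p below 0.05 there were 1261 genes, or 6.32%. The 95% interval of this difference had a median half-width of 0.34 before any adjustment. A call over all genes needs a larger difference, and Ifi209 at 1.46 (SE 0.27) did not reach one.

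For Cebpa the change was -0.67 in Cebpa-deleted cells and 0.03 in controls, a difference of -0.70 (95% interval -1.25 to -0.15, unadjusted p = 0.017, adjusted p = 0.741). Il1b read 8.10, 8.07 and 7.66 in controls at 0 h and 8.00, 8.02 and 7.86 at 2 h. Its difference was -0.85 (SE 0.21, unadjusted p = 0.00143), the change being -0.84 in Cebpa-deleted cells in this fit. Ctsk differed by 0.79 (SE 0.26, unadjusted p = 0.00932), Dnajb1 by -0.34 (SE 0.12, unadjusted p = 0.0114) and S100g by -0.77 (SE 0.33, unadjusted p = 0.0348). None of these passed the test over all genes. Reg3g changed by 2.46 in Cebpa-deleted cells and by 0.85 (SE 0.59) in controls, whose arrays spread from 6.31 to 8.16 at 0 h and from 6.83 to 9.12 at 2 h, and the difference of 1.61 had a 95% interval of -0.21 to 3.43.

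The cholesterol list had a median of -0.47 in Cebpa-deleted cells and -0.28 in controls, with 13 and 4 falls in the fit of 12 arrays, and no gene of it differed between genotypes past the test. Fatty acid and glycerolipid genes had medians of -0.26 and -0.20, with 13 and 10 falls. Respiratory chain genes had medians of -0.22 and -0.18, with 11 falls in each genotype. Small nucleolar RNA genes had medians of -0.47 and -0.81, with 31 and 38 falls. Lymphocyte markers had medians of 0.63 and 0.19, with 7 and 4 rises, and fibroblast markers 0.57 and 0.09, with 8 and 3. List differences between genotypes were not tested.

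The genes of smallest p for the genotype difference were taken with predicted, RIKEN, olfactory receptor, small RNA and histone genes passed over. They were Nptx1, Ifi209 and Prame on the side higher in Cebpa-deleted cells and Zfp980, Prl3c1 and Srsy on the other. Among the genes passed over, the 5S ribosomal RNA gene n-R5s136 differed by -1.05 (limma, unadjusted p = 9.25e-05), a smaller p than that of Ifi209. Ifi209, an interferon-inducible gene, changed by 0.60 in Cebpa-deleted cells and -0.86 in controls, a difference of 1.46 (SE 0.27, unadjusted p = 0.000116). Zfp980 changed by 0.28 and 1.15, Prl3c1 by -0.11 and 0.49, and Srsy, a Y-linked multicopy gene, by 1.38 and 2.95. With 1 array left out, 3 such fits made calls. Without control 2 h replicate 2 the gene called was n-R5s136 (-1.23), and without 2 h replicate 4 of the Cebpa-deleted cells it was 3110040M04Rik (-1.58). Without 2 h replicate 2 of the Cebpa-deleted cells Dll1, a Notch ligand, differed by 1.04 (SE 0.13, adjusted p = 0.0435) and Gjb6, a connexin, by -1.11 (SE 0.14, adjusted p = 0.0435). Dll1 read 7.30, 7.27 and 7.13 at 0 h and 7.45, 8.02 and 8.05 at 2 h in Cebpa-deleted cells, against 7.25, 7.14 and 7.32 and then 7.04, 7.09 and 6.86 in controls. These genes were named after their values were seen.

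**Figure D5:**
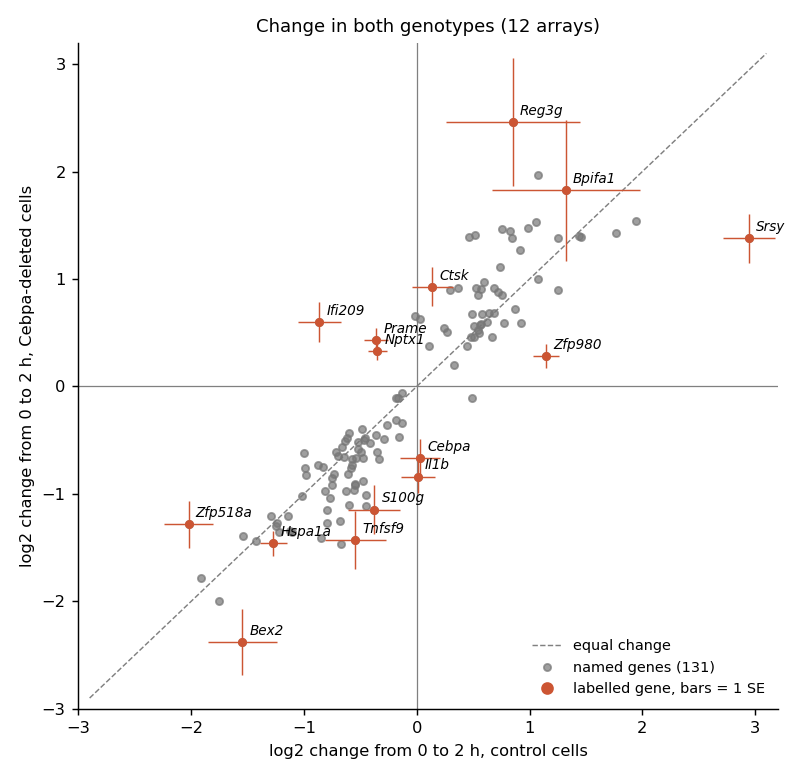
Log2 change from 0 to 2 h in control cells (horizontal axis) and Cebpa-deleted cells (vertical axis) for 131 named genes, with 1 SE bars on the labelled genes and a dashed line of equal change. Most points follow the line; Cebpa and Il1b fell in Cebpa-deleted cells with changes of 0.03 and 0.01 in controls, and no gene passed the test of the difference.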

How the data were processed

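Total RNA was hybridized to mouse expression arrays. The deposited values are log2 levels, and the submitters' processing notes name RMA as the authors' method; the version, the genome build and which arrays were normalized together are not given in the sources used here. Of 35557 features, 21789 with 1 gene symbol were used (symbols updated by Entrez identifier for 21698), taking the feature of highest mean over 18 arrays for the 999 genes with several. All features of the 6 arrays were quantile normalized together. limma 3.58.1 in R 4.3.3 (lmFit, eBayes) gave two-sided p-values, adjusted over 19938 genes by Benjamini-Hochberg, with no filter on low values. The genotype difference was an interaction contrast over 12 arrays. The fit was tested on simulated data. The members and gene lists were chosen with earlier results of these data known.

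Genes were named by rule: the C/EBP family; the 15 largest rises and falls among called genes above the median level whose groups did not overlap, passing over predicted, RIKEN, olfactory receptor, small RNA and histone genes (811 rises and 292 falls); from each list the called genes of largest change, at most 5; and the 3 of smallest p in each direction for the genotype difference. The same kinds of names were passed over for the genotype difference. Not every gene named by the rule is printed. Other list members were chosen after their values were seen. The number of arrays limits the precision. Figures were drawn with matplotlib 3.10.9.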

Additional observations from a re-analysis of the deposited data

Results flagged for a closer look

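These 2 results were flagged because all Cebpa-deleted arrays at 2 h lay above those at 0 h, whereas all control arrays at 2 h lay below those at 0 h. Dll1, described above, showed the same pattern, and how many other genes did was not counted. The genes were picked from the values tested, so the unadjusted p-values below are no separate support. Nptx1, a secreted pentraxin, read 7.30, 7.24 and 7.21 at 0 h and 7.45, 7.599 and 7.67 at 2 h in Cebpa-deleted cells, and 7.31, 7.25 and 7.20 and then 6.92, 6.97 and 6.82 in controls. The difference between the changes was 0.68 (SE 0.12, limma, unadjusted p = 6.62e-05), and it did not pass the adjustment over all genes. Prame read 4.64, 4.43 and 4.46 and then 4.93, 5.07 and 4.83 in Cebpa-deleted cells, and 5.19, 4.89 and 4.99 and then 4.71, 4.76 and 4.52 in controls. The difference of 0.79 (SE 0.15, limma, unadjusted p = 0.000186) did not pass either. These levels lie in or near the lowest decile of genes, which ended at 4.73. In Cebpa-deleted cells the call of Prame was lost without 0 h replicate 2, 0 h replicate 3 or 2 h replicate 3 (0.37 to 0.49). That of Nptx1 was kept only without 2 h replicate 2 (0.29 to 0.39).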

How the results depend on the processing

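Against 5751 called genes (2832 higher, 2919 lower), the values as deposited gave 10869 (4611 and 6258) and median centring 10881 (3372 and 7509). Testing the upper 60 percent of genes by level gave 2797 (1095 and 1702), fewer genes being tested. With the replicate number as a block, 3111 genes were called (1558 and 1553), and Cebpa stayed called (-0.63); only numbers 2 and 3 are shared, the deviations of same-numbered arrays correlated at 0.09 and -0.11, and the numbers do not pair the samples. A minimum of 1.5-fold left 2360 (1130 and 1230) and of 2-fold 359 (160 and 199). With 1 array left out the counts ran from 2467 to 8224 (1277 to 3818 higher, 1190 to 4406 lower). Cebpa ran from -0.93 to -0.43 and passed the test only without 2 h replicate 2. It also lost its call with scaling by the interquartile range (-0.65, adjusted p = 0.0576), with normal scores of ranks (-0.28 in score units, adjusted p = 0.0604) and among the upper 60 percent (-0.67, adjusted p = 0.0649). The count of genotype differences was 0 to 2 with 1 array left out and 0 in each other setting run. The causes were not tested. Among the genes named by the rule, signs turned under median centring for Cebpb (-0.32), Nkx2-1 (-0.036), Gclm (-0.10), Hspa4l (-0.005), Nr1d1 (-0.036), Krt7 (-0.022) and Clu (-0.12), as they did for other called list members such as Rhob, Srf, Tnfaip3, Ctsh, Ahsa1 and Hspa4, and with the mean of all features for Fggy (-0.73). Of 144 named genes that were called, 76 stayed called in each of the 6 fits with 1 array left out and 1, Ciart, in none; no sign turned. Cyclic loess normalization and the list medians without each array, with the block and with median centring were added after seeing the data. Array weights did not converge and were not used.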
